A study of Mus musculus with 2 samples.

Results

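The genes described here make, remodel and break down ceramide and the other sphingolipids. They comprise 40 mouse genes chosen by name, from serine palmitoyltransferase, which starts the pathway, to the receptors of sphingosine 1-phosphate. A gene was included where a non-control array probe carried its symbol, and all 40 genes were found among 37008 gene names, with 70 of the 56605 probes of the array. The cells were macrophages taken from the peritoneal cavity of MeXis null mice and of WT mice, both of the bl6 strain. MeXis is a long noncoding RNA gene near the cholesterol exporter gene Abca1 on chromosome 4, and the study concerned cholesterol efflux. Cells of both genotypes were kept in DMEM with serum, and the labels name no ligand or other treatment. They give neither the age nor the sex of the animals, nor how the null allele was made.

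RNA pooled from 3 samples was hybridised to 1 one-colour Agilent array per genotype. With 1 array each there was no replicate, so no genotype test could be made and every value below compares 2 arrays. The number of arrays limits the precision throughout. In bulk RNA of this kind, fewer cells of a type and less RNA per cell cannot be told apart. Signals are Agilent processed signals, put on a common scale between the arrays and called normalized signals here. Differences are log2 of MeXis null minus log2 of WT. The single MeXis probe was at background on both arrays, with a normalized signal of 8.18 on MeXis null and 12.7 on WT, so it could not check the labels.

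Ceramide is built in the endoplasmic reticulum from serine and a fatty acyl-CoA, and most of it is then turned into sphingomyelin or glycosphingolipids. Sphingomyelin packs with cholesterol in the plasma membrane, which links this pathway to cholesterol export in macrophages. Hydrolases return these lipids to ceramide. Ceramidases then release sphingosine, and sphingosine kinases make sphingosine 1-phosphate, a signal that acts inside the cell and, once exported, on surface receptors of leukocytes and endothelium.

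A spot is a patch of the array that carries 1 probe, a DNA oligomer of 60 bases. The starts of the probes behind the main differences are shown because each of these differences was read from 1 probe. Each line gives the first 30 bases of a probe, 5′ to 3′, as listed in the scanner files, with the mm9 position of the whole probe. Both Smpd3 probes are given because they differed in sign. The Acer2 probe covers a genomic stretch longer than itself and is therefore split in the genome. Whether a probe lies in coding sequence or in an untranslated region was not analysed here.
Galc, chr12:99441131-99441190, minus strand: gtttctcattagtatgatttatgtaacatt
Sptssa, chr12:55746509-55746568, minus strand: gaaatgcatttgcacgttgtgataaagaca
S1pr1, chr3:115414020-115414079, minus strand: aagatgaaaatgtgttccttttttgtcaca
Spns2, chr11:72265167-72265226, minus strand: gctgctgattgtgaatctcaaagtcttaag
Acer2, chr4:86576688-86577936, plus strand: ggaggactctccacgcccgcctcaggtgcc
Acer3, chr7:105365030-105365089, minus strand: gagaatttgggcttttcttaacaggttaac
Smpd2, chr10:41208252-41208311, minus strand: agtacagccgacagaaggacatctactttg
Smpd3 brighter probe, chr8:108776790-108776849, minus strand: tagcgaagtgtactagcttagcaaggacca
Smpd3 dimmer probe, chr8:108778800-108778859, minus strand: aagggttagtacgaggaccgggtttctgta
Smpdl3a, chr10:57531406-57531465, plus strand: ggagcataggaagattgacattctgtgtga

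Most of the sphingolipid genes differed little between the arrays, and those that differed went both ways. The highest in MeXis null were the lysosomal hydrolase Galc, the Golgi ceramidase Acer2, the neutral sphingomyelinase Smpd2 and the sphingosine 1-phosphate exporter Spns2. The lowest were Sptssa, a small subunit of serine palmitoyltransferase, and the receptor S1pr1. Of the 40 genes, 36 were well above background on both arrays. Asah2 was so on WT only, and Smpdl3b, Sgpp2 and S1pr4 were so on neither.

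A gene was called higher or lower at 1.5-fold, where 0 also lay outside the 95% interval of the scanner error, the error that the scanner software gives for each signal. By this rule 6 of the 36 genes were higher and 3 were lower in MeXis null. Of the 15474 genes of the whole array that could be read on both 18.2% were higher and 14.3% lower, against 16.7% and 8.33% of the sphingolipid genes. Neither share of the sphingolipid genes stood above that of the array. The split of 6 higher and 3 lower depended on the scaling: it was 5 and 5 with quantile normalization, 5 and 4 with loess, and 4 and 4 with scaling to the median or to all probes. Across all 15474 genes the split of 2820 higher and 2206 lower moved too. It was 2549 and 2475 with quantile normalization and 2497 and 2450 with loess. With scaling to the median it was 2393 and 2652, and to all probes 2501 and 2531. At 2-fold Galc alone was higher and Sptssa alone lower, beside 7.35% and 4.78% of all genes. The median difference of the 36 was -0.08, with 14 genes above 0 and 22 below, and the median of all genes was 0.04. The interquartile range of the sphingolipid genes lay between -0.38 and 0.28, and that of all genes between -0.35 and 0.44.

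The spread between spots sets a wider limit than the scanner error. Among 285 probes printed at least 5 times, copies of a probe scattered in their difference between the arrays with a median SD of 0.47. A difference read from 1 spot was therefore set against a limit of 0.91, or 1.88-fold. Beyond it lay 2 sphingolipid genes on the higher side, Galc and Acer2, and 2 on the lower side, Sptssa and S1pr1. Of all genes 9.07% lay beyond it on the higher side and 6.0% on the lower. The other calls, of Acer3, Smpd2, Smpd3, Spns2 and St3gal5, lie inside the spread between spots.

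Signal also varied across the array surface. A local surface correction takes off the median difference of the 100 neighbouring spots that were readable on both arrays, and it lowered the median SD between spots of a probe to 0.33. The local difference and the gene's own difference had a Pearson r of 0.69 across the 36 sphingolipid genes, and of 0.55 across all 15474 genes, which share the 2 arrays. After the correction 2 of the 36 genes were higher, Galc and Spns2, against 11.4% of all genes. There were then 3 lower, Sptssa, S1pr1 and the ceramide kinase gene Cerk, against 13.1% of all genes. The spread between spots, taken after the correction too, gives a limit of 0.64. The same 5 genes lay beyond it, 2 higher and 3 lower, and 10.1% and 11.1% of all genes did. Galc (0.96 to 1.64), Sptssa (-1.81 to -0.75) and Spns2 (0.62 to 0.79) stayed more than 1.5-fold from WT under every processing alternative that gave them a value.

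**Figure D1:**
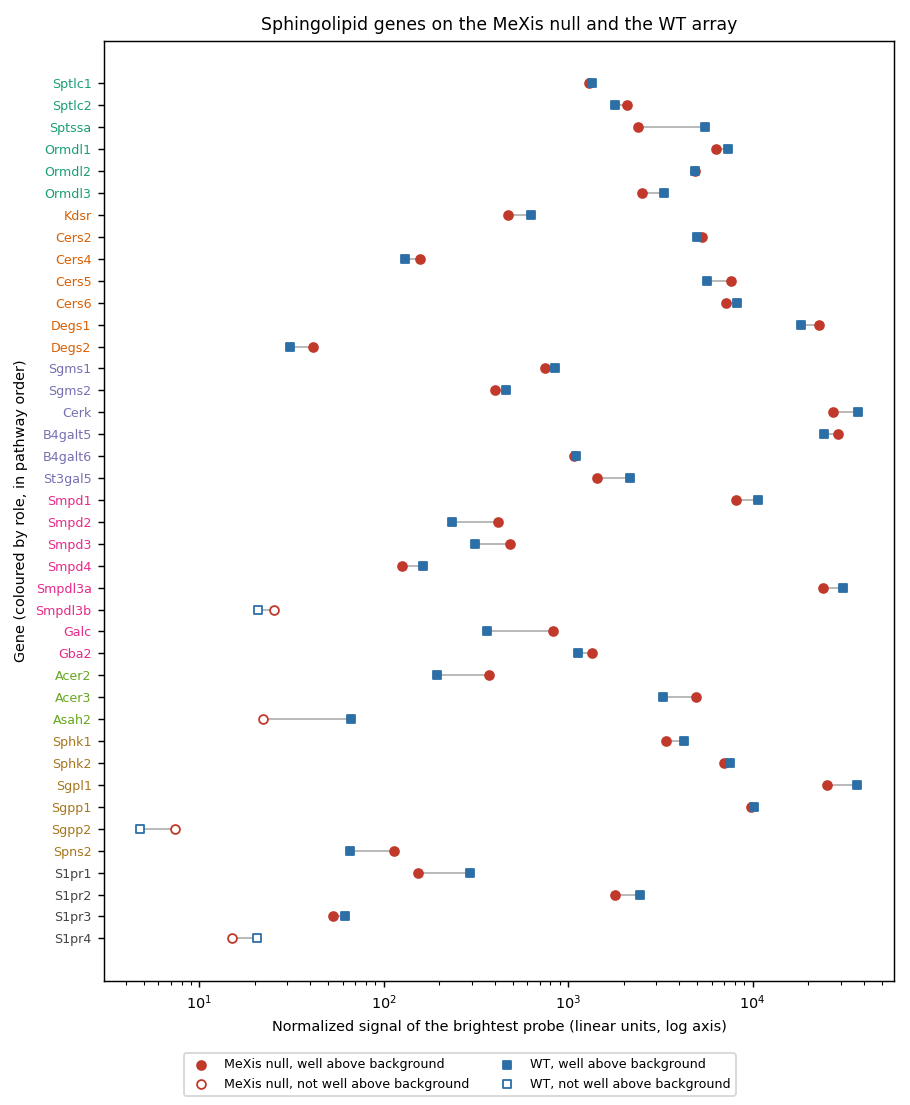
Normalized signal of the brightest probe of each of the 40 sphingolipid genes on a log axis, in linear signal units, with MeXis null as circles and WT as squares. Open symbols are signals not well above background, and the longest lines among genes with filled symbols on both arrays join the signals of Galc and Sptssa.

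The cells carried the macrophage genes that the label calls for. All 8 macrophage markers examined were well above background on both arrays, with a summed normalized signal of 439983 in MeXis null and 312571 in WT. Their median difference was 0.47, or -0.02 after local surface correction; Lyz2 (1.23), Cd14 (0.85) and Cd68 (0.67) were higher, and Csf1r (-0.88) and Mertk (1485 in MeXis null, 5787 in WT) lower. Of the higher ones Cd14 alone (0.79) stayed so after the correction, with Lyz2 at 0.52 and Cd68 at 0.36. Csf1r (-0.82) and Mertk (-1.16) stayed lower. Most of the summed signal was Cd68 (190083 in MeXis null, 119645 in WT) and Lyz2 (173663 in MeXis null, 73839 in WT). The probes of Cd68 disagreed in sign, and so did those of Csf1r. Markers of other cells are given for both pools, with sums over each whole list. The counts of calls stand beside 18.2% of all genes higher and 14.3% lower. B cell markers were lower for 4 of 5 measured genes (summed signal 2336 in MeXis null, 3871 in WT). Fibroblast markers were higher for 4 of 6 (12547 in MeXis null, 7561 in WT), while the seventh, Lum, was above background on WT only (39.0 in MeXis null, 134.7 in WT). Mesothelial markers were higher for 4 of 5 (1663 in MeXis null, 637.1 in WT). Neutrophil markers were lower for 1 of 4 (12915 in MeXis null, 20925 in WT). That one was Csf3r, with 11334 in MeXis null and 19354 in WT, while Elane (0.19) and Mmp8 (0.13) lay above 0 and S100a8 (-0.46) below. Of the 5 eosinophil markers Siglecf alone was read on both arrays (-0.75), and the defining Epx and Prg2 were at background; the list summed to 1535 in MeXis null and 2546 in WT. The part of these cells in the differences below was not tested.

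Serine palmitoyltransferase, the entry enzyme of the pathway, joins the large subunits Sptlc1 and Sptlc2 to a small activating subunit, and the Ormdl proteins restrain it when ceramide is plentiful. Only the small subunit Sptssa was called among these 6 genes, on the lower side, where 14.3% of all genes were called. Sptssa gave a normalized signal of 2398 in MeXis null and 5517 in WT, a difference of -1.20 with a scanner error of 0.20, or 2.30-fold lower. This was the lowest difference among the 36 genes, and the large subunits were within 1.5-fold at their brighter probes. Sptlc1 gave 1289 in MeXis null and 1339 in WT, and Sptlc2 gave 2075 in MeXis null and 1795 in WT. After local surface correction Sptssa was at -0.75, beyond the matching limit of 0.64, and with normexp background correction at -1.81.

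Both probes of Sptlc1 read near 0, at -0.05 and -0.02. The 2 probes of Sptlc2 disagreed, at 0.21 for the brighter and -0.58 for the dimmer. The regulators Ormdl1 (-0.21), Ormdl2 (-0.01) and Ormdl3 (-0.40) were within 1.5-fold. After local surface correction Ormdl1 was at -0.54, Ormdl2 at -0.06 and Ormdl3 at -0.18, still within 1.5-fold. The Ormdl2 signals, 4854 in MeXis null and 4879 in WT, were nearly equal.

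None of the 7 genes that carry the chain from the first sphingoid base to ceramide was called, beside 67.5% of all genes without a call. Their median was 0.26, or 0.08 after local surface correction. Kdsr, the reductase that follows serine palmitoyltransferase, was at -0.42, with 472 in MeXis null and 629.4 in WT, and its dimmer probe agreed at -0.50. The ceramide synthases attach the fatty acid, each with its own preference for chain length. Cers5, which prefers palmitoyl chains, was the furthest from 0 at 0.43, with 7630 in MeXis null and 5662 in WT. Cers4 (0.26), Cers2 (0.10) and Cers6 (-0.19) lay nearer to 0, and the dimmer Cers2 probe was at -0.18, opposite in sign to the brighter one.

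Degs1, the desaturase that sets the double bond of ceramide, differed by 0.32, with 22969 in MeXis null and 18366 in WT. Degs2, which also makes phytoceramide, differed by 0.41 on a dim signal of 41.4 in MeXis null and 31.2 in WT, with a scanner error of 0.33. Neither difference passed 1.5-fold. The ceramide synthesis genes thus gave no call on either side, and neither did 67.5% of all genes. The bright Degs1, Cers5 and Cers6 probes gave a scanner error of 0.20 each, but the spread between spots sets the wider limit of 0.91.

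Of the 6 genes that use ceramide, 1 was called lower, beside 14.3% of all genes, and the median of the 6 was -0.19. The sphingomyelin synthases Sgms1, of the Golgi, and Sgms2, largely of the plasma membrane, differed by -0.18 and -0.20 at their brightest probes. Sgms1 gave 752.6 in MeXis null and 849.7 in WT, and Sgms2 gave 399.8 in MeXis null and 460.5 in WT. Other Sgms1 probes were lower still: at -0.43, and at -1.25 for a probe designed on another transcript (267.8 in MeXis null, 638.2 in WT). That last difference lies beyond 0.91, and was -0.60 after local surface correction.

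Cerk, which makes ceramide 1-phosphate, differed by -0.45, with 27362 in MeXis null and 37497 in WT. After local surface correction it was at -0.71 and counted as lower. A second Cerk probe, which the scanner software marked as an outlier on WT and which was left out, read -0.19. The lactosylceramide synthases B4galt5 (0.24) and B4galt6 (-0.03) lay near 0.

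St3gal5, which makes the ganglioside GM3 from lactosylceramide, gave 1433 in MeXis null and 2151 in WT. Its difference of -0.59 was only just past the threshold of 1.5-fold, and was -0.50 after local surface correction. Sgpl1 at -0.55 was the nearest gene below the threshold on the lower side. On the higher side Acer3 at 0.60 was the nearest inside it and Cers5 at 0.43 the nearest outside.

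Of the 7 measured genes grouped under breakdown to ceramide 3 were higher, beside 18.2% of all genes. After local surface correction 1 was, beside 11.4% of all genes. Smpdl3a is counted in this group only as a relative of acid sphingomyelinase. Galc, the lysosomal galactosylceramidase that is deficient in Krabbe disease, was the highest of all 36. It gave 822.1 in MeXis null and 361.6 in WT, a difference of 1.19 with a scanner error of 0.21, or 2.27-fold. After that correction Galc was at 0.96, beyond both 0.64 and 0.91. The glucosylceramidase Gba2, which works outside the lysosome, differed by 0.26, or -0.20 after the correction.

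The sphingomyelinases went separate ways. Smpd2, a neutral sphingomyelinase of the endoplasmic reticulum, was 1.78-fold higher, with 414.6 in MeXis null and 233.4 in WT, and was within 1.5-fold after local surface correction (0.52). Smpd1, the acid sphingomyelinase of the lysosome, gave 8163 in MeXis null and 10758 in WT, a difference of -0.40 that became 0.04 after the correction and -0.98 with normexp. A dimmer Smpd1 probe, designed on another transcript, was at -1.10, or -0.54 after the correction.

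Smpd3, the neutral sphingomyelinase known for its part in exosome release, gave no single answer. Its brighter probe gave 486.4 in MeXis null and 312.0 in WT, a difference of 0.64. Its dimmer probe gave 152.5 in MeXis null and 317.7 in WT, a difference of -1.06. It was the dimmer by the mean of both arrays, but not on WT alone. The second difference is the larger and lies beyond the limit of 0.91, so the higher call of Smpd3 rests on the choice of the brighter probe. After local surface correction the probes read 0.20 and -0.81. Smpd4, the third neutral sphingomyelinase, differed by -0.38 on signals of 126.0 in MeXis null and 164.0 in WT.

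Smpdl3a, a secreted relative of acid sphingomyelinase described as an LXR target in human macrophages, was bright on both arrays. It gave 24029 in MeXis null and 30934 in WT, a difference of -0.36 with a scanner error of 0.20. The 95% interval of the scanner error, from -0.76 to 0.04, included 0, and the difference was -0.36 after local surface correction too. Smpdl3b, its membrane-anchored relative, gave 25.5 in MeXis null and 20.7 in WT and has no fold.

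**Figure D2:**
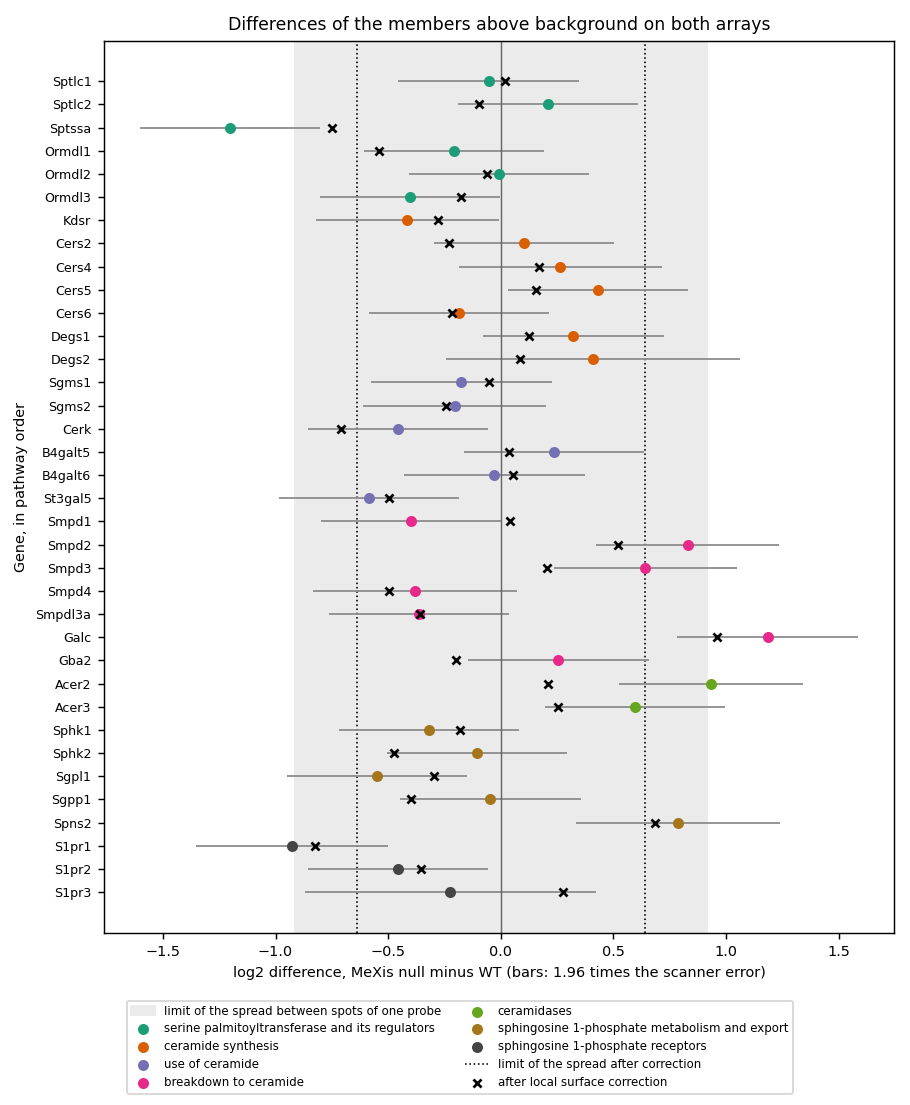
Log2 difference, MeXis null minus WT, of the 36 sphingolipid genes above background on both arrays, in pathway order; dots are the 75th percentile scaling, bars the 95% interval of the scanner error, crosses the values after local surface correction, grey the limit of 0.91 either way and dotted lines the limit of 0.64 that goes with the crosses. The dots of Galc, Acer2, Sptssa and S1pr1 lie outside the grey band, and the crosses of Galc, Spns2, Sptssa, Cerk and S1pr1 outside the dotted lines.

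Both ceramidases that could be measured on both arrays were higher, beside 18.2% of all genes. Both moved inside 1.5-fold with the surface correction. Acer2, of the Golgi, gave 370.5 in MeXis null and 193.9 in WT, a difference of 0.93, which was 0.21 after local surface correction and 0.21 with normexp. It was read from 1 of its 3 probes. The other Acer2 probes, designed on other transcripts, were at background on both arrays. Acer3 gave 4959 in MeXis null and 3283 in WT, a difference of 0.60, or 0.25 after the correction. Asah2, the neutral ceramidase of the cell surface, was above background on WT only, in 1 of its 5 probes. That probe gave 22.0 in MeXis null and 66.4 in WT, a difference of -1.59, with the MeXis null signal not well above background. The 95% interval of the scanner error ran from -2.68 to -0.51. After local surface correction the difference was -0.85 and inside the scanner error. Another Asah2 probe on the same transcript, at background on both arrays, read 30.6 in MeXis null and 27.8 in WT. Asah1, the acid ceramidase of the lysosome and outside the 40 genes, was lower at -0.93, although its probes disagreed in sign.

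The enzymes that make and remove sphingosine 1-phosphate gave no call, beside 67.5% of all genes without one. Sphk1, the inducible kinase, gave 3380 in MeXis null and 4219 in WT, a difference of -0.32. Sphk2 differed by -0.11. After local surface correction Sphk1 was at -0.18 and Sphk2 at -0.48. Sgpl1, the lyase that ends the pathway, gave 25325 in MeXis null and 37028 in WT, a difference of -0.55, which the surface correction moved to -0.30. A second Sgpl1 probe, marked as an outlier on WT and left out, read -0.28. The phosphatase Sgpp1 was at -0.05, or -0.40 after the surface correction, and Sgpp2 was not measurable on either array.

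Spns2, which carries sphingosine 1-phosphate out of the cell, was 1.73-fold higher. It gave 113.0 in MeXis null and 65.5 in WT, a difference of 0.79 with a scanner error of 0.23. It stayed higher after local surface correction, at 0.69, beyond the matching limit of 0.64, while the uncorrected value lies inside 0.91. Its role is best known in endothelium, where it releases sphingosine 1-phosphate into lymph and blood. Endothelial markers were higher for 1 of 3 measured genes (Esam, 1.09), beside 18.2% of all genes. Their summed signal was 5818 in MeXis null and 5286 in WT. Most of that sum was Vwf, at 5189 in MeXis null and 4796 in WT. The defining marker Pecam1 was above background on WT only, with 12.4 in MeXis null and 60.1 in WT. Egfl7 was above background on MeXis null only, with 41.7 in MeXis null and 18.3 in WT. After local surface correction 2 of the 3 measured markers were higher, with Esam at 1.29, beside 11.4% of all genes. Vwf, whose probes disagreed in sign, was then at -0.37. The part of endothelial cells in the Spns2 difference was not tested.

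All 3 measured receptors of sphingosine 1-phosphate were below 0, as were 7311 of all 15474 genes. Of the 3, 1 was called lower, beside 14.3% of all genes. S1pr1, the receptor that lymphocytes use to leave lymphoid organs, was 1.90-fold lower. It gave 154.0 in MeXis null and 293.1 in WT, a difference of -0.93, and -0.82 when corrected for the surface. With normexp it was at -0.30 and within 1.5-fold. S1pr1 is abundant in B cells, T cells and endothelium, and the B cell markers Cd79b (-1.71) and Ms4a1 (-0.81) were lower on the same array. T and NK cell markers summed to 318.8 in MeXis null and 524.3 in WT. Of the 2 measured genes 1 was lower, Cd2 at -1.28, beside 14.3% of all genes. The part of lymphocytes in the S1pr1 difference was not tested.

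S1pr2, a receptor that macrophages carry, gave 1791 in MeXis null and 2456 in WT, a difference of -0.46, and -0.35 when corrected. S1pr3 was dim, at 52.9 in MeXis null and 61.7 in WT, and its difference of -0.22 became 0.28 after the correction. S1pr4 was at background on both arrays. S1pr1 was thus the only receptor gene called.

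Where a gene had several probes above background on both arrays, they can be set against each other as a check that the choice of probe left out. There were 9 such genes, and for Sptlc2, Cers2 and Smpd3 the probes differed in sign. Across all genes with several such probes this was the case for 2843 of 5202. The probes of Sptlc1, Ormdl3, Kdsr, Cers6, Sgms1 and Smpd1 had the same sign, below 0 in each. With the median over a gene's probes the median of the 36 genes was -0.19, and Smpd3 was at -0.21.

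**Figure D3:**
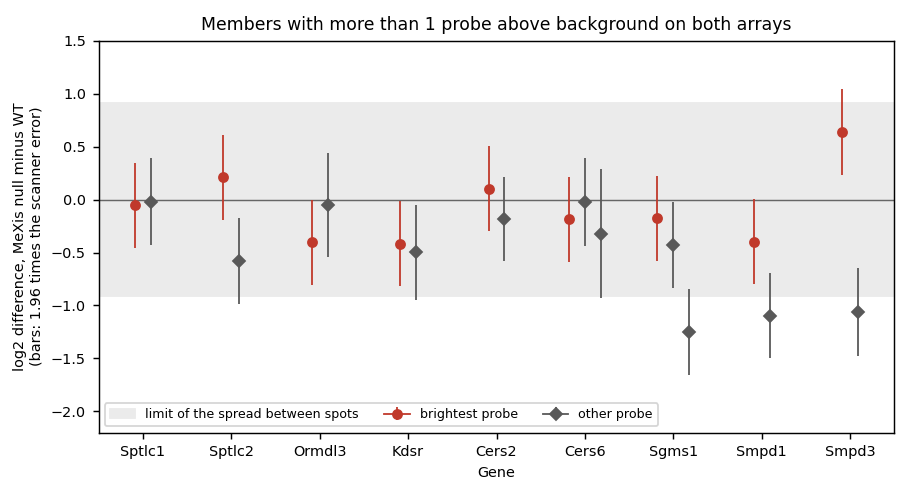
Log2 difference, MeXis null minus WT, of each probe of the 9 sphingolipid genes with more than 1 probe above background on both arrays; red dots are the brightest probe, grey diamonds the others, bars the 95% interval of the scanner error and the grey band the limit of 0.91. The dimmer probes of Sgms1 (-1.25), Smpd1 (-1.10) and Smpd3 (-1.06) lie below the band, and no brightest probe does.

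A further list held sphingolipid genes outside the 40. Of 34 listed, 32 were on the array, 23 were above background on both arrays, and of these 9 were higher and 4 lower, or 39.1% and 17.4%, against 18.2% and 14.3% of all genes. Their median was 0.18, and -0.06 after local surface correction, when 3 were higher and 6 lower. The corrected counts stand beside 11.4% and 13.1% of all genes. Whether these genes differed more often than the 40 was not tested.

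Genes of lysosomal sphingolipid breakdown were among these calls. Gm2a, the activator that presents GM2 ganglioside to hexosaminidase, gave 2446 in MeXis null and 595.5 in WT, a difference of 2.04, or 1.85 when corrected for the surface. The sulfatase Arsa (0.63) and the saposin precursor Psap (0.62) were higher, and were within 1.5-fold after the correction, at 0.21 and -0.04. Asah1 was on the other side, with 11019 in MeXis null and 20942 in WT, and -0.22 as the median of its probes.

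The phosphatases that remove extracellular lipid phosphates, sphingosine 1-phosphate among them, were opposed. Plpp1 gave 779.3 in MeXis null and 229.0 in WT, a difference of 1.77 (1.28 after local surface correction). Plpp3 gave 4991 in MeXis null and 12447 in WT, a difference of -1.32 (-0.87 after the correction). Mfsd2b, a sphingosine 1-phosphate exporter known from red cells and platelets, gave 40985 in MeXis null and 17621 in WT, a difference of 1.22 (0.81 after the correction). Mfsd2b was read from 1 of its 2 probes, and the other was not well above background on both arrays. Aldh3a2, which oxidises the fatty aldehyde left by the lyase, was at -1.31, with 597.7 in MeXis null and 1481 in WT. Its difference was -0.94 after the correction and -0.72 as the median of its probes.

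Further calls were smaller. The glycolipid transfer protein Gltp (0.63), the ganglioside synthase B4galnt1 (0.64) and Nsmaf (0.63), an adaptor of neutral sphingomyelinase, were higher. All 3 were within 1.5-fold after local surface correction, with Nsmaf at -0.06. The probes of Nsmaf disagreed in sign, and their median was 0.21. Elovl1, which makes the very long acyl chains of ceramide, was lower at -0.75 (-0.59 after the correction), although its probes disagreed in sign and their median was -0.04. The 10 genes without a call ranged from -0.56 to 0.49.

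**Figure D4:**
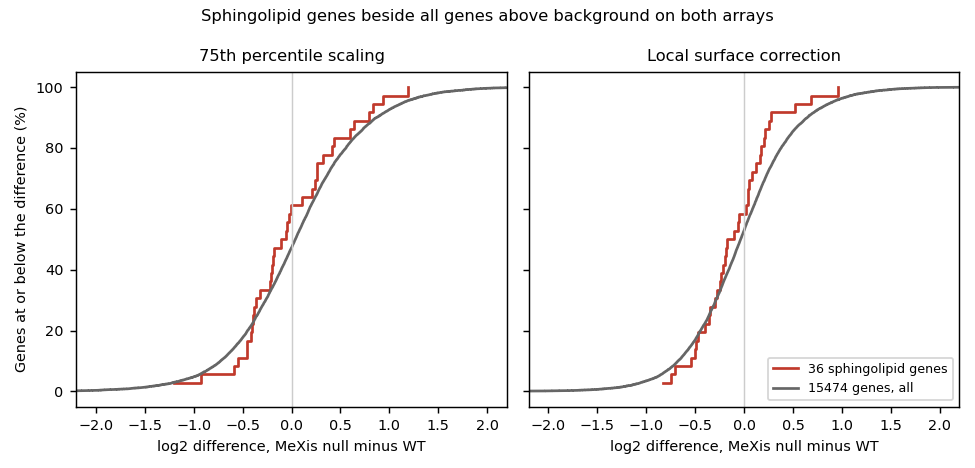
Cumulative share in percent of the 36 sphingolipid genes (red) and of all 15474 genes read on both arrays (grey) against their log2 difference, MeXis null minus WT, with the 75th percentile scaling on the left and after local surface correction on the right. The red curve crosses 50% at -0.08 on the left and -0.14 on the right, and ends at 1.19 and 0.96.

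The promoters of Galc and Sptssa, the genes furthest above and below WT among the 36, are shown for their sequence context. RefSeq promoters of build GRCm38.p6 were matched for 36 of the 40 genes, with 51 start sites. The 250 bases upstream of each start were searched on both strands for the nuclear receptor core AGGTCA, the LXR direct repeat (this core repeated in the same direction after 4 bases of any kind), the E-box CACGTG, the CCAAT box CCAAT, the GC box GGGCGG and the TATA box TATAAA. The core is part of the direct repeat. Capitals mark matches to the core, E-box, CCAAT box or GC box, and the sequences read 5′ to 3′ on the gene's strand.
Galc, chr12:98259460-98259709, minus strand: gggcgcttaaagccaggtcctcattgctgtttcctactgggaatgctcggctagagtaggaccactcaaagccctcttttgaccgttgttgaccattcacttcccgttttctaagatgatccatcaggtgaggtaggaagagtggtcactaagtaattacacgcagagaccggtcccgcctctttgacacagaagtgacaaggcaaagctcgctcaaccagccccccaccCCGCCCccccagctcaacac
Sptssa, chr12:54656573-54656822, minus strand: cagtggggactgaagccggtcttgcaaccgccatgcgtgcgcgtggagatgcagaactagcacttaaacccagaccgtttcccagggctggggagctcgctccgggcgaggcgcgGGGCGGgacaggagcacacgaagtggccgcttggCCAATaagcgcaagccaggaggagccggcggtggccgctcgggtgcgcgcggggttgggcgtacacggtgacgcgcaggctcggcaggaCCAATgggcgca

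The Galc stretch held 1 GC box, and that of Sptssa 1 GC box and 2 CCAAT boxes. Neither held the core or the E-box. Over the sphingolipid genes 54.9% of 51 promoters held a GC box, against 32.7% of all 32851 promoters, and 1 of the 51 held a TATA box, against 12.4% of all. The core was in 25.5% against 14.0%, the E-box in 15.7% against 6.02% and the CCAAT box in 35.3% against 33.9%. The full LXR direct repeat was in 0 of the 51 and in 5 of all 32851. Promoters of 1 gene overlap in part, and these matches describe letters, not binding.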

How the data were processed

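The authors deposited 1 scanner file per array and a series matrix. Per the file headers, Agilent Feature Extraction 11.5.1.1 made the intensity values on a linear scale, with background subtracted and surface trends removed, and the probe coordinates are mm9. The deposited matrix held the same intensity as the scanner's processed signal for each of 62976 features (relative tolerance 1e-04; column medians 17.0 for MeXis null and 12.9 for WT), so its scale is linear and not centred. Of 59305 non-control spots, 44.3% on MeXis null and 48.0% on WT were well above background.

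From these values log2 signals were computed, less each array's 75th percentile over probes read above background on both, because most probes were not detected. The scaling point of MeXis null was 1.06 times that of WT. Control spots and spots marked as outliers (205 on MeXis null, 305 on WT) were left out; 0 were saturated. Spots of a probe were averaged, and a gene was read from its brightest probe, that with the highest mean log2 signal over both arrays. Names other than those of the 40 genes were updated through RefSeq (GRCm38.p6): 32994 probes by accession, 10224 by symbol, 520 by synonym, and 12867 kept the file's name. Cers1 and Gla were not found by name. The genes named are the 40, the other sphingolipid genes called, and markers; 1 called gene and 1 marker are counted but not reported by name here. The genes, lists and settings were chosen with earlier results of these data known, and the limit of the spread after surface correction was added after seeing them. The steps were tested on simulated data. Python 3.11.15 and limma 3.58.1 (normexp) were used.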

Additional observations from a re-analysis of the deposited data

How the results depend on the processing

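The alternatives were normexp with an offset of 50, quantile and loess (span 0.3) normalization, scaling to the median or to all probes, local surface correction, the series matrix, no filter or a minimum signal of 100, the median over probes, outlier spots kept, and a 2-fold threshold. The count of lower sphingolipid genes was 5 with quantile normalization, beside 2475 of all 15474 genes. The count of higher ones was 2 after local surface correction, beside 11.4% of all genes. At 2-fold 1 was higher and 1 lower, beside 7.35% and 4.78% of all genes. Their median was -0.19 over all probes of a gene. The median of the other sphingolipid genes was 0.0175 with quantile normalization, -0.0596 after local surface correction and 0.53 with no filter on dim probes. The sign of Smpd3 turned with the median over probes (-0.21), and those of Psap (-0.0411) and Nsmaf (-0.0596) with local surface correction; the cause was not tested. Of 536 values of single genes, 520 moved by less than 0.47 and 13 others moved by more without turning a called sign. The series matrix, the absent or stricter signal filter and outlier spots kept left each of these values unchanged where the gene was kept. Scaling to the median or to all probes shifted every gene alike. The count of 520 is therefore partly fixed by the settings and is no measure of stability. Across all genes the split was 2820 higher and 2206 lower, against 2549 and 2475 with quantile normalization. No paired analysis was possible because each genotype has 1 array and the labels give no replicate number. Signals near background limit Asah2, Degs2, S1pr3 and Spns2.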
